A study of Macaca mulatta with 10 samples.

Results

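IVDS3 cells, the most advanced culture stage of this series, were compared with the undifferentiated embryonic stem (ES) cells from which they were grown, using the 4 of 10 arrays whose titles name these groups (2 IVDS3 and 2 ES). All of the cells were ORMES6, a single ES cell line of the rhesus macaque, so the values describe 1 line. ES cells were kept on mouse embryonic fibroblast (MEF) feeders with basic FGF at 4 ng/ml and served as the control. The labels give the same basic FGF dose for every sample, IVDS3 included, so no difference in it can be read from them. IVDS stands in the labels for in vitro differentiation stage, and stage 3 was reached by co-culture with hESdF, human fibroblast-like cells made from ES cells, which were used to obtain hepatic foci. The labels repeat this protocol for every sample and do not say whether MEF or hESdF cells were removed before RNA was taken. Whole cultures at stage 2 (IVDS2), their colony centres (IVDS2-C) and colony peripheries (IVDS2-P), with 2 arrays each, entered the fit for the spread and were set against IVDS3 to see which differences went beyond stage 2.

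Some background helps to read the groups of genes. ES cells keep a network of transcription factors that holds the pluripotent state, divide quickly with a short first gap phase, and depend on FGF and activin signals. Squamous epithelia build layered sheets held by desmosomes and keratin filaments, and their upper cells make cornified envelope proteins, S100 proteins and clade B serpins. Interferons are secreted when cells sense viral or misplaced nucleic acids, and the many genes they induce block virus growth and raise antigen presentation, while pluripotent cells are known to respond to interferon weakly. Liver cells are known for secreted plasma proteins, drug-metabolising enzymes and bile transporters.

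Values are log2 expression with every probe set centred on its median over the 10 arrays, and a gene is the mean of its probe sets. Only differences between arrays can be read from them, so a gene's presence or absence in either group cannot be read. A difference is IVDS3 minus ES with its standard error (SE) from limma, n = 2 arrays per group throughout, and a difference of 1 is 2-fold. A gene was called, and is said to have risen or fallen, at a Benjamini-Hochberg adjusted p under 0.05. An omission means the same fit without 1 of these 4 arrays. The labels do not say that the repeats were separate cultures, so p-values measure the spread between these samples, which may be technical. The ES arrays differed from each other more than those of the other groups (SD of the replicate difference over genes 0.369, against 0.215 for IVDS3). ES replicate 2 read high at the 377 probe sets for viral sequences (median 0.337, other arrays -0.0973 to 0.0523). Of these, 52 were called lower in IVDS3 and 0 higher (19.9% and 17.9% of all probe sets). The part of such a shift in small falls elsewhere was not tested. Values without ES replicate 2 are given where its omission changes a call, and the 2 arrays of each group limit the precision throughout.

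IVDS3 differed from ES cells at 6557 of 13191 genes (49.7%), 2780 higher (21.1%) and 3777 lower (28.6%). Counts of list members called against ES are to be read beside these shares. The falls were more numerous and the rises larger. The 12 largest rises, from 8.56 to 6.80, were those of KRT4, GABRP, IFIT1, CLDN8, S100A9, IFI27, TGFBI, ZNF750, IFIT3, IFI44, BLNK and SERPINB2, and the 12 largest falls, from -7.60 to -4.17, those of POU5F1, SFRP1, DPPA4, SPP1, SFRP2, DNMT3B, ARHGAP36, SALL4, ACTC1, RBPMS2, GPR176 and FST. At least 2-fold differences were about as frequent upward (1394 genes, 10.6%) as downward (1162, 8.81%), at least 8-fold differences numbered 268 upward and 57 downward, and at least 64-fold differences 27 and 2. Both IVDS3 arrays lay above both ES arrays at 29.1% of genes and below both at 45.0%, and this held for each of the 6557 called genes. Without ES replicate 2 the calls were 2531 higher (19.2%) and 3331 lower (25.3%). Subtracting every array's own median gave 3015 rises and 3228 falls, a smaller excess of falls. At the level of single probe sets, named or not, 16708 of 44210 were called (37.8%), 17.9% higher and 19.9% lower. There the excess of falls (7900 higher, 8808 lower) turned round when array medians were subtracted (8561 higher, 7499 lower) and with the 4 arrays alone (6745 higher, 6497 lower).

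**Figure D1:**
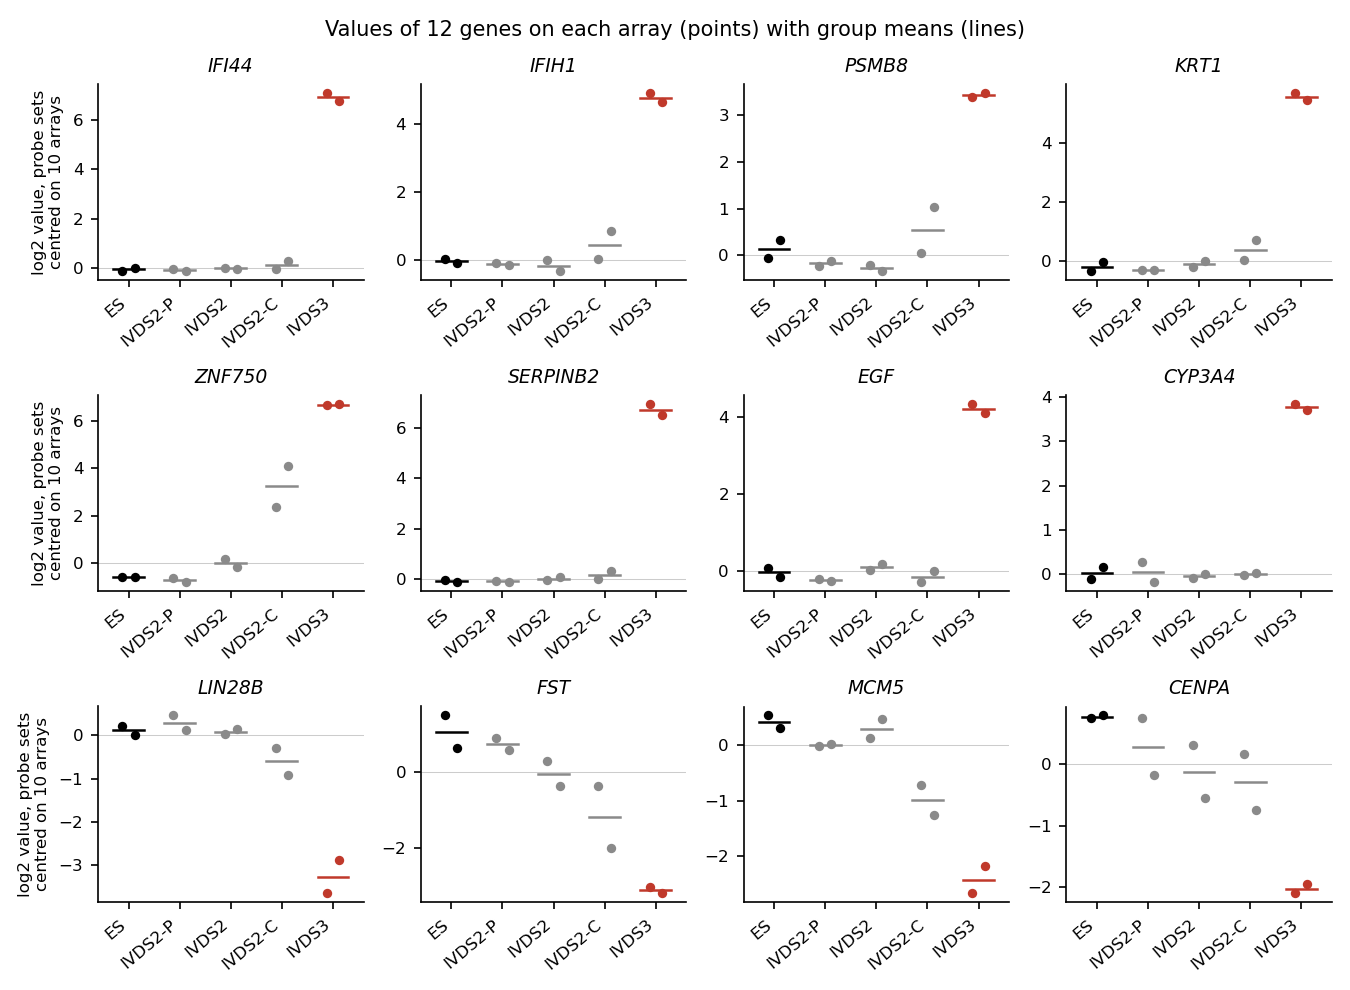
Values of 12 genes on each of the 10 arrays (points, log2, probe sets centred over the arrays) with the mean of each group of 2 (lines), ES in black, stage 2 groups in grey and IVDS3 in red. In all 12 genes both IVDS3 arrays lie outside the range of the other 8 arrays, as for IFI44 at 7.10 and 6.79 against -0.12 and -0.00012 in ES. The 12 genes were picked by hand with earlier results of these data known. The share of all genes with this separation is not given, so it describes these genes only.

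Interferon-induced genes were among the largest rises. Of 44 antiviral effectors measured, 39 had risen (21.1% of all genes), 37 of them at least 2-fold (10.6%), and 0 had fallen, with a median difference of 3.08 against -0.13 over all genes. IFI44, a cytoplasmic protein induced by interferon, read -0.12 and -0.00012 on the ES arrays and 7.10 and 6.79 on the IVDS3 arrays, a 128-fold rise (SE of the log2 difference 0.15, adjusted p = 3.64e-08). OAS2, which makes the oligoadenylates that switch on RNase L, read -0.27 and 0.0016 in ES and 6.38 and 6.23 in IVDS3, a rise of 6.44 ± 0.61 (86.8-fold). CMPK2, a mitochondrial nucleotide kinase, rose by 5.96 ± 0.51. In each of these genes the replicates of a group lay within 1 log2 unit of each other and the groups were separated by more than 5. In whole IVDS2 cultures, against the same ES arrays, 2 members were called higher (6.50% of all genes) and 4 lower (6.23%), with a median of -0.10, and in the colony centre the median was 0.76. Tested directly, 42 of the 44 were higher in IVDS3 than in IVDS2 (17.6% of all genes) and 40 higher than in the colony centre (10.9%). Chosen after their values were seen, the 5 members that were not called were IFITM1 (0.081 ± 0.33), TRIM5 (-0.073 ± 0.24), TRIM22 (0.096 ± 0.30), TRIM25 (-0.070 ± 0.14) and CCL5 (-0.20 ± 0.12).

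Some of the sensors that start this response, and of the factors that carry it, rose. Of 13 nucleic acid sensors 6 had risen (21.1% of all genes) and 0 had fallen, with a median of 0.37, so that 7 were not called. IFIH1 (MDA5), which binds long double-stranded RNA, read 0.022 and -0.093 in ES and 4.89 and 4.64 in IVDS3, a rise of 4.80 ± 0.24 (27.8-fold, adjusted p = 1.59e-06). RIGI, the sensor of short RNA with a triphosphate end, rose by 4.75 ± 0.58, the endosomal receptor TLR3 by 3.19 ± 0.19, the DNA sensor IFI16 by 6.53 ± 0.54 and the DNA-response adaptor STING1 by 2.43 ± 0.18. IFIH1, TLR3 and STING1 were -0.15, 0.12 and -0.071 from ES at IVDS2 and 0.47, 0.31 and 0.068 in the colony centre, and each was higher in IVDS3 than in both (largest adjusted p 1.83e-05 against IVDS2 and 4.42e-05 against the centre). Of 9 signal transducers, 5 rose and 0 fell (21.1% and 28.6% of all genes), with a median of 0.76: the transcription factors IRF1 (1.60 ± 0.26), IRF7 (1.28 ± 0.19), IRF2 (1.02 ± 0.19), IRF8 (0.91 ± 0.15) and STAT2 (0.76 ± 0.14). The receptor kinase TYK2 was not called (0.25 ± 0.13). Of the interferon ligands looked for, only IFNL1 was measured, and it was not called (0.59 ± 0.24, adjusted p = 0.0705). The 3 receptor chains measured went different ways. IL10RB, which lambda interferons share with interleukin 10, rose by 3.36 ± 0.15, IFNLR1, specific to lambda interferons, was not called (-0.0041 ± 0.15), and IFNAR2, a chain of the type I receptor, fell (-0.48 ± 0.13), a call lost in 2 omissions (adjusted p = 0.106 without IVDS3 replicate 1 and 0.051 without ES replicate 2).

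Class I antigen presentation, the pathway that shows peptides from inside the cell to T cells, rose in 15 of 19 measured genes with a median difference of 1.36. PSMB8, a catalytic subunit of the immunoproteasome, read -0.048 and 0.33 in ES and 3.39 and 3.47 in IVDS3 (3.29 ± 0.27, 9.76-fold). TAP1, which carries peptides into the endoplasmic reticulum, rose by 3.04 ± 0.36, and B2M, the light chain of class I molecules, by 2.48 ± 0.32. The macaque class I heavy chains MAMU-E, MAMU-A and MAMU-AG rose by 3.17 ± 0.35, 2.43 ± 0.19 and 2.10 ± 0.18; these are near-identical copies, and their probe sets may read one another. NLRC5, the activator of class I gene transcription, rose by 1.54 ± 0.19. B2M was -1.06 from ES at IVDS2, and IVDS3 exceeded IVDS2 by 3.55 ± 0.32 (adjusted p = 5.08e-05). All 15 that rose over ES were also higher in IVDS3 than in the colony centre.

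The largest rise among all genes was that of a keratin of moist stratified epithelium, KRT4 (8.56 ± 0.20, 379-fold), and keratins of layered epithelia rose with it in 9 of 12 cases. KRT1, the keratin of cells that have left the basal layer of epidermis, read -0.33 and -0.012 in ES and 5.67 and 5.43 in IVDS3 (5.73 ± 0.21, 52.9-fold, adjusted p = 3.22e-07), while its usual partner KRT10 rose by 0.73 ± 0.12. KRT3, a keratin of the cornea, rose by 3.82 ± 0.12, KRT16, which marks activated and wounded epithelium, by 3.53 ± 0.17, and the mucosal partner of KRT4, KRT13, by 3.45 ± 0.23. KRT2 (0.094 ± 0.16), KRT75 (0.25 ± 0.16) and KRT76 (-0.24 ± 0.12) were not called, KRT75 reaching adjusted p = 0.0491 without ES replicate 2. At IVDS2 0 of these keratins were called above ES and in the colony centre 2 (13.7% of all genes), and all 9 that rose were higher in IVDS3 than in either. Of 6 keratins of simple epithelia 5 rose and 1 fell, by 0.49 (21.1% and 28.6% of all genes). Among the rises, KRT23 rose by 5.29 ± 0.12 and KRT8, already 2.14 above ES at IVDS2, by 1.53 ± 0.23.

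Proteins of the upper layers rose in part. Of 17 cornified envelope genes 9 had risen and 1, CNFN, had fallen (-0.59 ± 0.13). CSTA, a cysteine protease inhibitor of the envelope, read -1.36 and -1.07 in ES and 5.43 and 5.39 in IVDS3 (6.62 ± 0.38, 98.4-fold). SCEL (sciellin) rose by 5.70 ± 0.25, the small proline-rich protein SPRR1B by 4.09 ± 0.18, the envelope scaffold IVL (involucrin) by 2.86 ± 0.27 and EVPL (envoplakin) by 2.34 ± 0.14. The 2 IVDS3 arrays differed by about 1 log2 unit for IVL (3.39 and 2.38) and less for the others. SERPINB2, a clade B serpin that inhibits urokinase, read -0.038 and -0.11 in ES and 6.93 and 6.52 in IVDS3 (6.80 ± 0.16, 112-fold, adjusted p = 3.64e-08). SERPINB7 (5.50 ± 0.21), SERPINB13 (3.37 ± 0.23), SERPINB5 or maspin (2.99 ± 0.15) and SERPINB9, the inhibitor of granzyme B (1.04 ± 0.16), rose too, whereas SERPINB6 (-0.047 ± 0.22) and SERPINB12 (-0.21 ± 0.12) were not called. Of 13 S100 calcium-binding proteins 11 rose, with S100A8, the partner of S100A9 in calprotectin, at 6.40 ± 0.22 and S100P at 4.79 ± 0.35. S100A1 fell (-0.55 ± 0.18), a call lost without any 1 of the 4 arrays (adjusted p = 0.0667 to 0.145).

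Cell junctions changed in composition. Of 13 desmosome genes 10 rose at least 2-fold, among them the desmosomal cadherins of the upper layers DSG1 (3.23 ± 0.25) and DSC1 (2.50 ± 0.17), and PKP4, a plakophilin-related protein also found at adherens junctions, fell (-1.35 ± 0.17). All 5 measured genes of hemidesmosomes, the anchors of basal cells to the basement membrane, rose, none of them 2-fold: CD151 (0.97 ± 0.16), ITGB4 (0.77 ± 0.13), ITGA6 (0.73 ± 0.15), LAMA3 (0.67 ± 0.14) and PLEC (0.65 ± 0.15). Claudins, the sealing proteins of tight junctions, split. CLDN1, the main claudin of epidermis, read -0.88 and -0.74 in ES and 3.95 and 3.71 in IVDS3 (4.64 ± 0.37), and CLDN23 (4.13 ± 0.30) and CLDN16 (2.36 ± 0.11) rose as well. CLDN10 (-3.46 ± 0.17) and CLDN6, known from pluripotent and fetal epithelium (-1.60 ± 0.23), fell, as did CLDN19 (-0.43 ± 0.11), whose call was lost in 1 omission (adjusted p = 0.0794 without IVDS3 replicate 1).

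Transcription factors of squamous fate rose in 19 of 24 cases, each by at least 2-fold, with a median of 2.67. ZNF750, which drives the late steps of epidermal differentiation, read -0.59 and -0.62 in ES and 6.68 and 6.70 in IVDS3 (7.29 ± 0.43, 157-fold, adjusted p = 3.59e-06). It stood 0.61 above ES at IVDS2 and 3.84 above in the colony centre, and IVDS3 was higher than the centre by 3.46 ± 0.43 (adjusted p = 0.000569). GRHL1, a regulator of desmosomal cadherins, rose by 4.03 ± 0.20, CEBPA by 3.84 ± 0.17 and KLF5 by 6.06 ± 0.39. TP63, the master factor of basal stratified epithelium, rose by 3.01 ± 0.14, and had reached 2.38 at IVDS2 and 3.20 in the colony centre, from which IVDS3 did not differ at the threshold (-0.19 ± 0.14, adjusted p = 0.394). KLF4 rose by 1.78 ± 0.27, and at IVDS2 it differed from ES by -0.97. PITX1 fell (-0.33 ± 0.12), a call that did not hold in 3 omissions (adjusted p = 0.105 without IVDS3 replicate 1, 0.192 without IVDS3 replicate 2 and 0.221 without ES replicate 2). The epidermal growth factor receptor EGFR read -1.29 and -1.25 in ES and 2.62 and 3.82 in IVDS3 (4.49 ± 0.43), and its ligands EGF (4.25 ± 0.15), BTC (2.73 ± 0.17) and AREG (2.99 ± 0.69) rose. EGF was 0.13 from ES at IVDS2 and -0.12 in the centre. Of epithelial channels, the glycerol channel AQP3 rose by 4.97 ± 0.38 and the chloride channel regulator CLCA2 by 2.65 ± 0.13, and the sodium channel subunit SCNN1A fell (-1.20 ± 0.16).

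**Figure D2:**
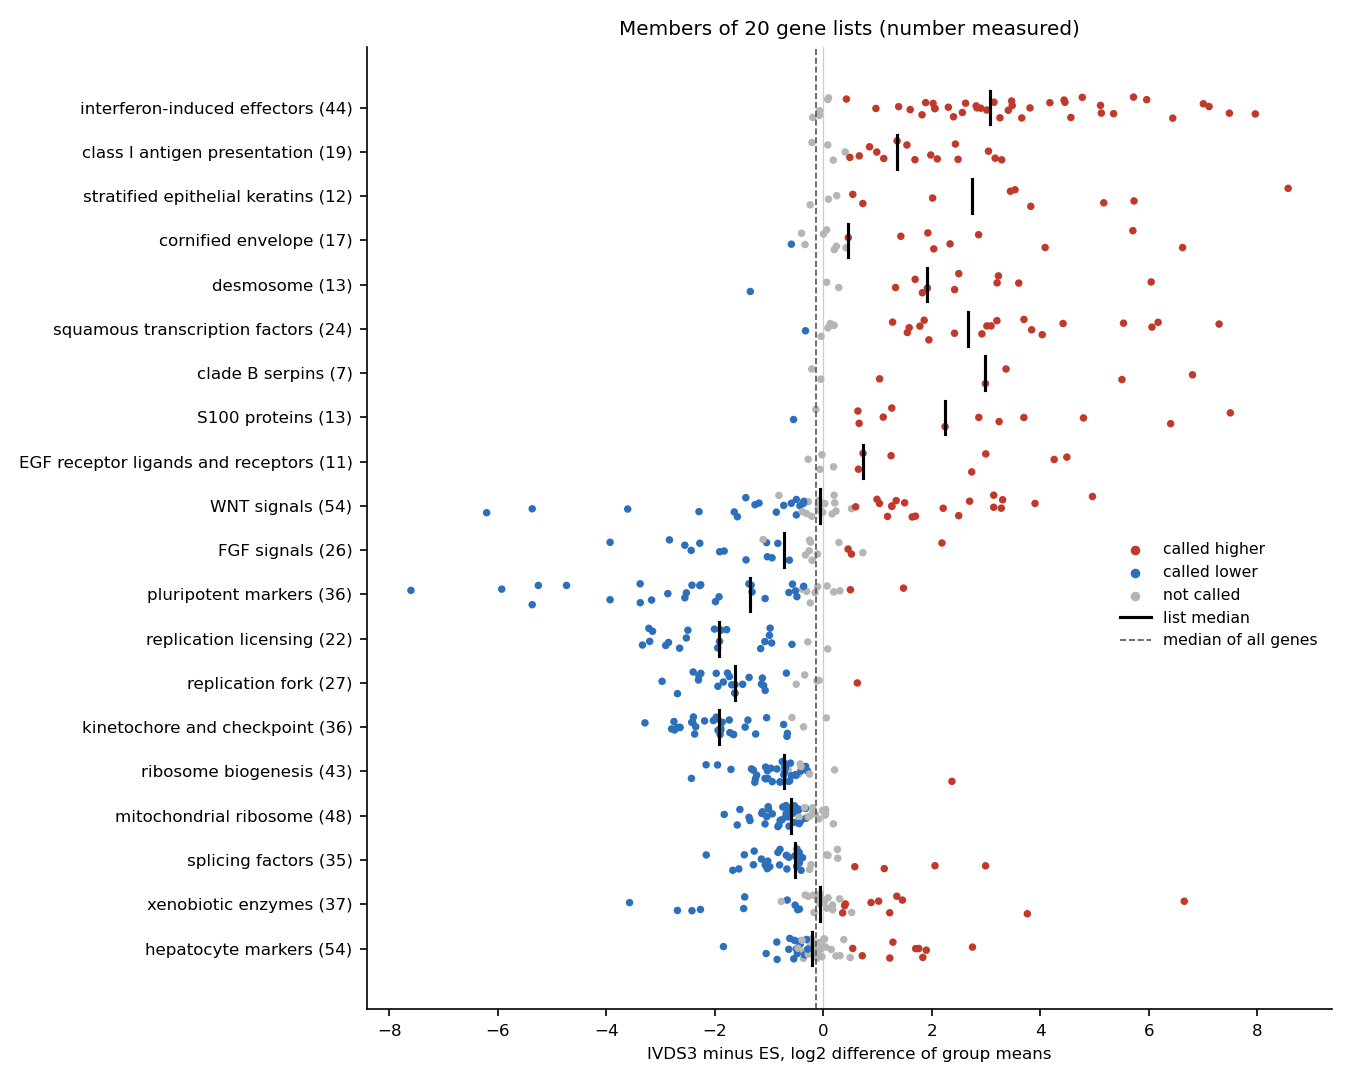
Difference between IVDS3 and ES (log2, x axis) for each measured member of 20 gene lists (points; red called higher, blue called lower, grey not called), with the median of each list (black bar) and of all genes (dashed line). Interferon and squamous lists lie to the right, with medians up to 3.08, replication, mitosis and pluripotency lists to the left, down to -1.93, and hepatocyte markers spread around -0.21.

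Markers of early extraembryonic tissues overlap with those of squamous epithelium, and the lists share genes. Of 29 amnion markers 21 rose (median 2.34) and CLDN10 and BMP4 fell. At IVDS2 18 of them were already called above ES (6.50% of all genes), and against the colony centre 8 were higher in IVDS3 and 8 lower (10.9% of all genes each way). MSX2 rose by 3.26 ± 0.25 and ISL1, a LIM factor of amnion and heart, by 2.45 ± 0.25, and both were lower in IVDS3 than in the colony centre (-1.54 ± 0.25 and -1.04 ± 0.25, adjusted p = 0.0023 and 0.018). HEY1, a NOTCH and BMP target, rose by 3.49 ± 0.26 and stood at 3.55 in the centre. BMP4 itself read -0.55 and -0.16 in ES and -2.85 and -2.69 in IVDS3, a difference of -2.42 ± 0.33, and lay 1.48 above ES at IVDS2. Of 30 trophoblast markers 16 rose, the placental antigen gene XAGE3 by 5.67 ± 0.48, and 4 fell: TEAD4 (-1.74 ± 0.15), which is needed for the first trophoblast cells, the efflux pump ABCG2 (-1.81 ± 0.37), EOMES (-0.66 ± 0.17) and PGF (-0.46 ± 0.15). The last 2 calls were lost with an array left out (adjusted p for EOMES 0.0576 without IVDS3 replicate 2, and for PGF 0.05 without IVDS3 replicate 1, 0.174 without IVDS3 replicate 2 and 0.171 without ES replicate 2).

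Genes of the pluripotent state fell in 26 of 36 cases (28.6% of all genes) with a median of -1.35. POU5F1, at the head of the network, fell by 7.60 ± 0.79. LIN28B, which blocks maturation of let-7 microRNAs, read 0.22 and 0.016 in ES and -3.64 and -2.87 in IVDS3 (-3.37 ± 0.27, 10.4-fold lower, adjusted p = 1.82e-05). It was -0.029 from ES at IVDS2 and -0.71 in the colony centre, and IVDS3 lay below both (-3.35 ± 0.27 and -2.66 ± 0.27). PROM1 (-1.99 ± 0.16), ZIC2 (-1.33 ± 0.13) and MYBL2 (-2.42 ± 0.19) were likewise lower in IVDS3 than in both. NR5A2, a nuclear receptor that sustains POU5F1 expression (-2.87 ± 0.24), and the ETS factor ETV4 (-2.28 ± 0.21) stood at -2.92 and -2.31 in the centre, from which IVDS3 was not called different (adjusted p = 0.912 and 0.944). The 2 members that rose were NANOG (1.48 ± 0.19) and EPCAM (0.50 ± 0.14), and the EPCAM call was lost in 2 omissions (adjusted p = 0.101 without IVDS3 replicate 2 and 0.0785 without ES replicate 1). KLF4, a factor of both squamous and pluripotent cells that was not in this list, also rose (1.78). Of 11 genes that write, read or remove DNA methylation 4 rose and 6 fell (21.1% and 28.6% of all genes), with a median of -0.49. The de novo methylase DNMT3B had the largest change (-5.25 ± 0.37). The demethylating enzyme TET1 fell (-3.48 ± 0.32) and its relative TET2 rose (2.25 ± 0.10), as did the methyl-CpG binding protein MBD2 (2.24 ± 0.18), the methyl-CpG binding factor ZBTB38 (1.13 ± 0.11) and the maintenance methylase DNMT1, given with the replication fork. DNMT3A fell (-0.79 ± 0.11), as did UHRF1, which brings the maintenance methylase to replicated DNA (-2.40 ± 0.27).

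Signalling genes changed in both directions. FGF genes fell in 13 of 26 cases and rose in 3, which were the FGF carrier FGFBP1 (2.19 ± 0.26) and, with calls lost in some omissions, FGF11 (0.52 ± 0.12, adjusted p = 0.0601 without IVDS3 replicate 1) and FGFR2 (0.46 ± 0.16, adjusted p = 0.0538 to 0.224 over the 4 omissions). FST (follistatin), a secreted inhibitor of activin, read 1.49 and 0.63 in ES and -3.02 and -3.19 in IVDS3 (-4.17 ± 0.48, 17.9-fold lower), and the activin receptor ACVR2B fell (-1.57 ± 0.25), while INHBA, the subunit of activin A, rose (1.60 ± 0.22). WNT genes moved both ways (19 of 54 higher, 17 lower, 35.2% and 31.5% against 21.1% and 28.6% of all genes, median -0.057). Among the ligands WNT6 (4.96 ± 0.31), WNT3 (3.28 ± 0.28) and WNT10A (3.14 ± 0.34) rose, with WLS, which carries ligands to the cell surface (3.30 ± 0.43). The inhibitors went both ways. APCDD1 (3.90 ± 0.36) and KREMEN2 (3.14 ± 0.28) rose. The secreted inhibitors SFRP1 (-6.20) and SFRP2 (-5.57 to -5.16 over the 4 omissions) fell, both among the 12 largest falls given above. Among the receptors FZD7, the main frizzled of ES cells, read 0.60 and 0.58 in ES and -3.01 and -3.03 in IVDS3 (-3.60 ± 0.26), and FZD5 (-2.29 ± 0.31) and FZD4 (-1.58 ± 0.11) fell too. In the BMP and TGF-beta list, the stress-induced cytokine GDF15 (3.04 ± 0.36) and BMP7 (1.66 ± 0.20) rose and the ligand GDF11 fell (-0.86 ± 0.16). The NOTCH ligand JAG2 rose by 2.11 ± 0.24 and the Hedgehog effectors GLI1 (-1.01 ± 0.15) and GLI2 (-1.09 ± 0.14) fell.

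Many genes of DNA replication and mitosis fell. Of 22 genes that license replication origins 20 fell and 0 rose, at a median of -1.93. MCM5, a subunit of the replicative helicase, read 0.53 and 0.31 in ES and -2.67 and -2.19 in IVDS3 (-2.85 ± 0.22, 7.23-fold lower, adjusted p = 1.48e-05), and ORC1, of the origin recognition complex, fell by 3.15 ± 0.32. At the fork 22 of 27 genes fell, among them topoisomerase TOP2A (-2.69 ± 0.25), and 1, DNMT1, rose (0.63 ± 0.23), a call lost in 2 omissions (adjusted p = 0.255 without IVDS3 replicate 1 and 0.198 without ES replicate 1). Kinetochore and spindle checkpoint genes fell in 33 of 36 cases at a median of -1.92. CENPA, the histone variant of centromeres, read 0.75 and 0.80 in ES and -2.10 and -1.95 in IVDS3 (-2.80 ± 0.38), and OIP5, which loads it, fell by 3.29 ± 0.24. Homologous recombination and Fanconi genes fell in 18 of 23 cases, with CHEK1 at -2.72 ± 0.21 and FANCD2 at -2.58 ± 0.25. The lists were not alike. Kinesins, motors of the spindle and of transport, fell in 13 of 21 cases at a median of -0.51, KIF2C by the most (-3.15 ± 0.26), and KIF5B, a transport motor, rose (0.48 ± 0.11), a call lost in 1 omission (adjusted p = 0.0554 without IVDS3 replicate 1). Of 11 genes of the anaphase promoting complex, which marks mitotic proteins for destruction, 4 fell (36.4% against 28.6% of all genes), 2 of them when IVDS3 replicate 1 was left out, and 1, ANAPC11, rose (0.67 ± 0.18), a call lost in 2 omissions (adjusted p = 0.0575 without IVDS3 replicate 1 and 0.0593 without IVDS3 replicate 2), at a median of -0.18. Its largest fall was that of UBE2S, which extends the ubiquitin chains (-1.60 ± 0.14). In bulk RNA, fewer dividing cells and less of these transcripts per cell cannot be told apart.

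A few members of these lists went the other way. CCND3, the D-type cyclin of many differentiated cells, read -0.49 and 0.080 in ES and 2.55 and 2.94 in IVDS3 (2.95 ± 0.23), and RBL2, a pocket protein that binds E2F in resting cells, and CDK6 rose by 0.98 ± 0.13 and 0.93 ± 0.21, against falls in 27 of 38 genes of that list such as CCNE1 (-2.34 ± 0.21), CDK1 (-2.34 ± 0.24) and CDC25C (-3.01 ± 0.29). The cohesin subunit STAG1 rose by 2.46 ± 0.18 while 12 of 16 condensin and cohesin genes fell. In nucleotide synthesis 15 of 17 genes fell, from PPAT at the start of purine synthesis (-2.26 ± 0.25) to thymidylate synthase TYMS (-1.51 ± 0.15), and DUT, the dUTPase (3.01 ± 0.35), and RRM2B, the p53-induced ribonucleotide reductase subunit (0.94 ± 0.12), rose. DUT is read by 1 probe set and stood at 3.87 in the colony centre. Of the inhibitors, CDKN2C rose by 0.76 ± 0.13 and GADD45A by 1.16 ± 0.12. In the list of 19 cell cycle inhibitors 8 rose and 2 fell (21.1% and 28.6% of all genes). In the colony centre 11 were higher than ES and 0 lower (13.7% and 16.5% of all genes). Against the centre, 3 were higher in IVDS3 and 3 lower (10.9% of all genes each way).

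Genes of ribosome production, RNA processing and glycolysis fell in smaller steps. Of 43 ribosome biogenesis genes 36 fell at a median of -0.73, 14 of them at least 2-fold, such as the nucleolar helicase DDX10 (-2.43 ± 0.24) and NPM3 (-2.16 ± 0.17); NOP2, an rRNA methyltransferase, rose (2.37 ± 0.24). Against the colony centre, 6 of these genes were lower in IVDS3 (10.9% of all genes). Mitochondrial ribosomal proteins fell in 35 of 48 cases, led by MRPL44 (-1.83 ± 0.17). Splicing factors fell in 25 of 35, such as PTBP2 (-2.16 ± 0.19), and 4 rose, the epithelial regulators ESRP2 (2.06 ± 0.23) and RBM47 (1.12 ± 0.21), MBNL2, which promotes adult splice forms (2.99 ± 0.17), and RBFOX2 (0.58 ± 0.11). LMNB1, the lamin of dividing cells, fell by 2.48 ± 0.18, and LMNA, the lamin of differentiated cells, rose by 1.05 ± 0.13. Glycolysis genes fell in 12 of 21, among them GAPDH, often taken as a steady reference (-1.97 ± 0.12), hexokinase HK2 (-2.02 ± 0.22) and the lactate carrier SLC16A1 (-2.14 ± 0.20), and PDK4, which shuts pyruvate out of the citric acid cycle, rose (2.78 ± 0.24). Cytosolic ribosomal proteins had a median of -0.23, and RPL24 among them rose by 4.64 ± 0.44 at its 1 probe set.

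Genes of the liver, the fate named in the protocol, moved in both directions. Of 54 hepatocyte markers 9 rose and 16 fell, 16.7% and 29.6% of the list against 21.1% and 28.6% of all genes. The median was -0.21 against -0.13. Of the falls, 2 were at least 2-fold (8.81% of all genes). The list medians per array were 0.028 and 0.23 in ES and -0.021 and -0.023 in IVDS3. The fallen markers numbered 8 without IVDS3 replicate 1, 9 without IVDS3 replicate 2 and 10 without ES replicate 2. AFP, the main plasma protein of fetal liver, read 0.15 and 0.071 in ES and -0.58 and -0.48 in IVDS3 (-0.64 ± 0.12, adjusted p = 0.0022), and SERPINA1 (alpha-1 antitrypsin) was not called (0.15 ± 0.12), although its most variable probe set alone was (0.62, adjusted p = 0.04). AGT, the angiotensin precursor, rose by 2.75 ± 0.29, AMBP, the precursor of alpha-1 microglobulin, by 1.76 ± 0.20 and the fetal growth factor IGF2 by 1.28 ± 0.17. AGT stood at 3.28 in the colony centre. Biliary markers rose in 8 of 15 and fell in 2 (53.3% and 13.3%). In the colony centre 8 were already higher than ES and 1 lower (13.7% and 16.5% of all genes). Against the centre, 1 was higher in IVDS3 and 3 lower (10.9% of all genes each way). Hepatobiliary transporters rose in 4 of 17 and fell in 8 (23.5% and 47.1%). Of 30 liver transcription factors 11 rose (36.7% against 21.1% of all genes), FOXA1 by 2.39 ± 0.23 and NR2F2 by 4.56 ± 0.31, factors that other epithelia and mesenchyme use too. The 5 that fell (16.7% against 28.6% of all genes) were FOXA3 (-3.16 ± 0.27), NR5A2, HHEX (-1.47 ± 0.17), HNF4G (-1.33 ± 0.21) and KLF15 (-0.57 ± 0.13). In the colony centre 11 of the 30 were higher than ES and 4 lower. Against the centre, 4 were higher in IVDS3 and 5 lower (10.9% of all genes each way). The endoderm factors FOXA2 (-0.29 ± 0.12, adjusted p = 0.0813), GATA4 (-0.21 ± 0.14, adjusted p = 0.241) and GATA6 (0.60 ± 0.56, adjusted p = 0.392) were not called.

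Genes of enzyme families known for handling foreign compounds changed in both directions (10 of 37 higher and 10 lower, 27.0% each against 21.1% and 28.6%). CYP3A4, the main drug-metabolising cytochrome of adult liver and gut, read -0.13 and 0.15 in ES and 3.84 and 3.70 in IVDS3 (3.76 ± 0.16, 13.5-fold, adjusted p = 7.66e-07), and it was -0.067 from ES at IVDS2 and -0.016 in the colony centre. Its 1 probe set may read near-identical members of the CYP3A family. CYP1A1, induced through the aryl hydrocarbon receptor, rose by 6.65 ± 0.67 (101-fold) and CYP4B1 by 1.35 ± 0.11. UGT8 (-3.57 ± 0.29), CYP2S1 (-2.69 ± 0.24) and CYP4F11 (-2.42 ± 0.29) fell. These are named for their families, and whether each acts on foreign compounds was not looked at. The canalicular export pump ABCC2 read 2.54 and 2.30 in ES and -0.18 and -0.0073 in IVDS3 (-2.52 ± 0.16), and its basolateral relative ABCC3 rose (1.14 ± 0.12). Of the complement genes, CFI (3.35 ± 0.14) and CFB (2.32 ± 0.22) rose and C1QA fell (-1.34 ± 0.16).

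**Figure D3:**
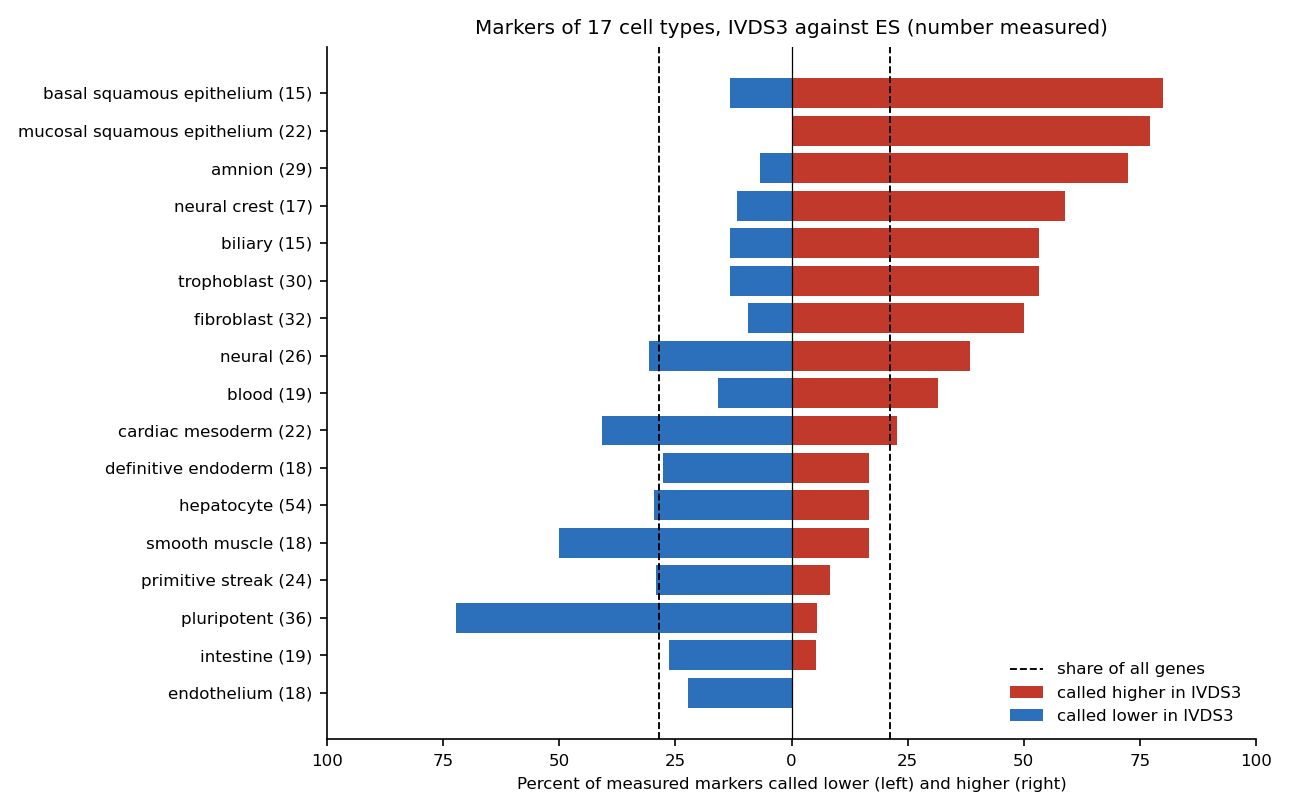
Percent of the measured markers of 17 cell types called higher (red, right) or lower (blue, left) in IVDS3 than in ES, with the shares of all genes as dashed lines (21.1% and 28.6%). Squamous and amnion markers lie furthest above the line for rises, pluripotent markers furthest beyond that for falls, and hepatocyte markers close to both lines.

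Other cell types that the samples could hold were looked at through their markers. Fibroblast markers rose in 16 of 32 cases (21.1% of all genes) at a median of 0.53. Their medians per array were -0.24 and -0.13 in ES and 0.43 and 0.25 in IVDS3. LUM (lumican), a collagen-binding proteoglycan, read -0.32 and -0.20 in ES and 5.54 and 4.89 in IVDS3 (5.48 ± 0.21, 44.5-fold), and DCN (decorin) read -0.31 and -0.33 and 4.22 and 4.30 (4.57 ± 0.16). COL1A2 rose by 2.91 ± 0.16 and FAP by 2.12 ± 0.22. The 3 that fell were THBS2 (-2.69 ± 0.23), THY1, which is also a surface marker of ES cells (-1.31 ± 0.14), and COL1A1 (-0.74 ± 0.24), whose call was lost without any 1 of the 4 arrays (adjusted p = 0.0516 to 0.167). VIM (vimentin) was not called (0.37 ± 0.29), reaching adjusted p = 0.0163 without ES replicate 1 and differing by -0.11 without ES replicate 2. ES cultures held mouse and IVDS3 cultures human fibroblasts at some stage, and the part of carried-over cells in these differences was not tested. Smooth muscle markers fell in 9 of 18 and rose in 3, 50% and 16.7% against 28.6% and 21.1% of all genes. Cardiac actin ACTC1 stood at -4.51 ± 0.52 and calponin CNN1 at -2.81 ± 0.29. Neural markers split (10 of 26 higher, 8 lower, 38.5% and 30.8% against 21.1% and 28.6% of all genes). The microtubule regulators of young neurons STMN2 (5.67 ± 0.60) and DCX (1.96 ± 0.30), the neuronal RNA-binding protein ELAVL4 (3.09 ± 0.30) and PAX6, also a factor of eye surface epithelium (3.33 ± 0.48), rose. SOX3 (-1.60 ± 0.11), SYT1 of synaptic vesicles (-1.93 ± 0.27) and LHX5 (-0.71 ± 0.13) fell. Neural crest markers rose in 10 of 17 and fell in 2 (58.8% and 11.8%). Their median was 0.80, and 0.79 at IVDS2. Tested directly, 4 of the 17 were higher in IVDS3 than in IVDS2 and 8 lower (17.6% and 22.2% of all genes). Of the blood markers, LYZ, which glandular epithelia also make (4.98 ± 0.26), and LCP1 (3.12 ± 0.23) rose, and ITGAM, the myeloid integrin, fell (-2.14 ± 0.16).

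Genes of the extracellular matrix and its receptors, which both fibroblasts and epithelia make, changed member by member. Of 34 matrix proteases and inhibitors 17 rose and 7 fell, 50% and 20.6% against 21.1% and 28.6% of all genes. The lysosomal proteases CTSV (2.78 ± 0.34) and CTSL (2.20 ± 0.13) and the stromelysin MMP10 (1.83 ± 0.29) rose, and the protease inhibitor SERPINE2 (-1.71 ± 0.18) and the metalloprotease ADAM19 (-1.44 ± 0.11) fell. ITGA2, a collagen receptor chain of keratinocytes, read -0.72 and -0.78 in ES and 3.76 and 3.56 in IVDS3 (4.41 ± 0.49), and ITGB6, an epithelial chain that activates TGF-beta (2.00 ± 0.27), and ITGA3, a laminin receptor chain (1.35 ± 0.16), rose. ITGA7, the laminin receptor chain of muscle, fell (-1.48 ± 0.13). Of 32 collagens 9 rose and 6 fell (28.1% and 18.8% against 21.1% and 28.6% of all genes), with a median of -0.049. Among the rises, COL6A1 rose by 1.44 ± 0.13 and stood at -0.10 at IVDS2. COL5A2 rose by 1.44 ± 0.15 and was lower in IVDS3 than in the colony centre (-0.70 ± 0.15, adjusted p = 0.0114).

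Positional, metabolic and immune genes outside these programs also separated the groups. HOX and MEIS family genes rose in 11 of 24 (21.1% of all genes). The cofactors MEIS1 (4.07 ± 0.30) and PBX3 (2.60 ± 0.15) lay ahead of HOXA5 (1.83 ± 0.15) and HOXA3 (1.74 ± 0.15), and PBX2 fell (-0.89 ± 0.14). PBX3 and HOXA5 were -0.088 and 0.074 from ES at IVDS2. In lipid handling, the acyl-CoA synthetase ACSL1 (5.48 ± 0.36), the fatty acid receptor CD36 (4.65 ± 0.20), the carnitine transferase CPT1A (3.87 ± 0.27) and PPARG (1.75 ± 0.15) rose, and the elongase ELOVL6 fell (-1.91 ± 0.22). Lysosomal genes rose in 15 of 34 (21.1% of all genes), with LAMP2 at 3.14 ± 0.18 and cathepsin CTSH at 2.78 ± 0.23. Of the list 8.82% fell (28.6% of all genes), namely NBR1 (-1.56 ± 0.14), NPC2 (-1.28 ± 0.15) and CTSZ (-0.79 ± 0.16). IL1RN, the secreted antagonist of interleukin 1, read -0.29 and 0.13 in ES and 5.05 and 4.80 in IVDS3 (5.01 ± 0.25), the alarmin IL33 rose by 3.13 ± 0.17, and the chemokine CXCL12 fell (-2.08 ± 0.20). MT1E, a metal-binding metallothionein, rose by 5.91 ± 0.62, and the zinc importer SLC39A14 fell (-3.15 ± 0.24). CASP4, the caspase that senses bacterial lipopolysaccharide in the cytosol, rose by 4.34 ± 0.31, and GSDME, a pore-former cut by caspases, fell (-1.67 ± 0.19).

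**Figure D4:**
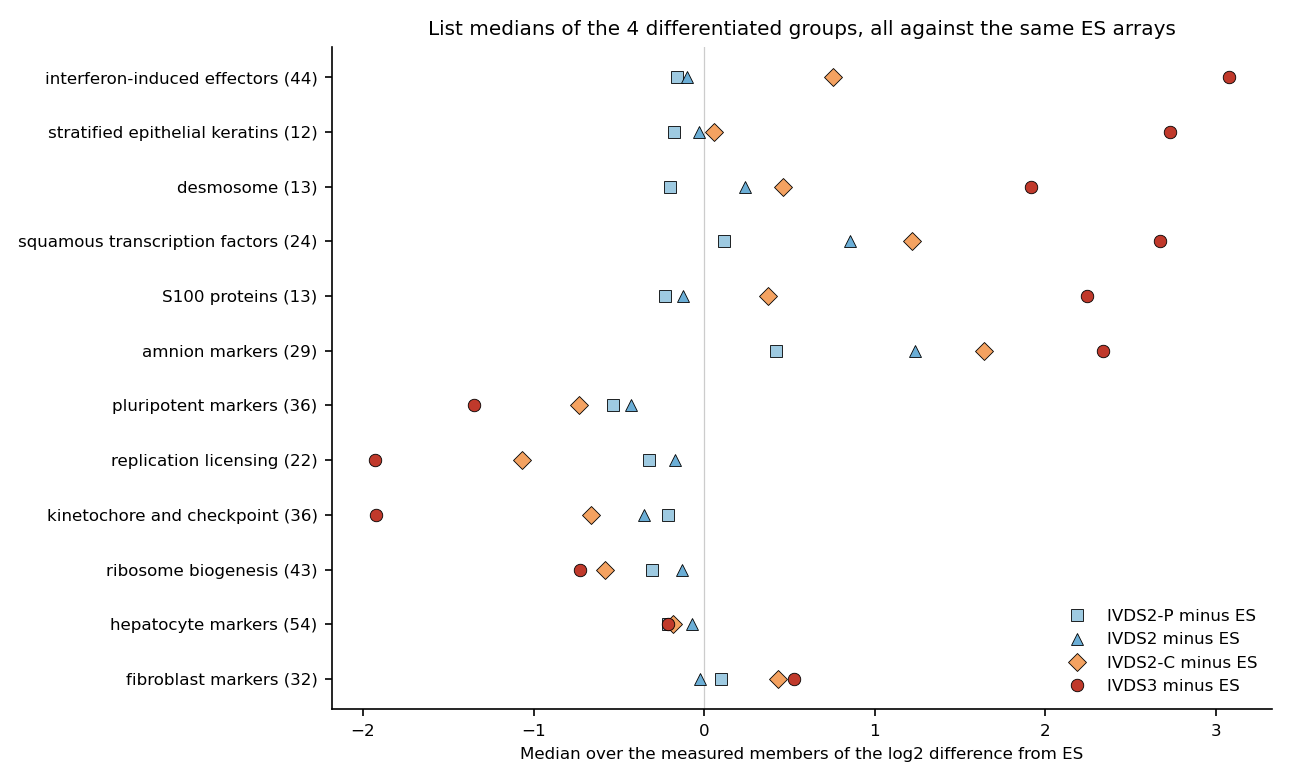
Median log2 difference from ES over the members of 12 gene lists for IVDS2-P (squares), IVDS2 (triangles), IVDS2-C (diamonds) and IVDS3 (circles), all against the same 2 ES arrays. IVDS3 lies furthest from 0 for the interferon, squamous, replication and kinetochore lists. For ribosome biogenesis (-0.73 and -0.58) and fibroblast markers (0.53 and 0.43) the medians of IVDS3 and the colony centre are close. Close medians do not mean that members were unchanged. Tested directly, 12 of 32 fibroblast markers were higher in IVDS3 than in the centre and 3 lower (10.9% of all genes each way).

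Direct tests set IVDS3 against the colony centre at stage 2. Of the genes that rose over ES, 1218 were also higher in IVDS3 than in both IVDS2 and its colony centre, and 1455 were not called against the centre. Of those that fell, 1069 were lower than both and 2636 were not called against the centre. Over all genes, 10.9% were called higher in IVDS3 than in the centre and 10.9% lower. Most genes of any kind were thus not called against the centre, and these counts are to be read beside that. The largest rises among genes not called against the centre were CYP1A1, KLF5, MT1E, STMN2, DENND1B (5.44 ± 0.30, 5.16 in the centre), ANXA1 (4.98 ± 0.56), KLHL29 (4.83 ± 0.50) and CD36, and the largest falls POU5F1, SPP1, ARHGAP36, GPR176 (-4.21 ± 0.27, -3.99 in the centre), BEND4 (-4.01 ± 0.50), NPTX2 (-3.84 ± 0.34), RGS20 (-3.70 ± 0.28) and UGT8. A p that misses the threshold does not show equality: for KLF5 the direct difference was 1.14 ± 0.39, for CD36 -0.29 ± 0.20. Of the 36 kinetochore genes 31 and of the 22 licensing genes 14 were lower in IVDS3 than in the centre (10.9% of all genes). The 2883 genes called between IVDS3 and the centre numbered 1473 without IVDS3 replicate 1, 1803 without IVDS3 replicate 2 and 1482 without IVDS2-C replicate 1, and the 5242 called between IVDS3 and IVDS2 numbered 3433 without IVDS3 replicate 1.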

How the data were processed

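Total RNA of 5 groups with 2 samples each was measured on 10 Affymetrix rhesus macaque arrays. The deposited values came from RMA, whose version is not given in the sources used here, per the submitters' processing notes. They are taken as log2 because RMA gives log2 values, although the authors' deposited file does not state the base. Each of the 44294 probe sets has a median of 0 over the 10 arrays (none beyond 1e-05), so absolute levels are not given.

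After 84 control probe sets were left out, 44210 were tested. The platform annotation gave 1 gene for 22802 probe sets, several for 316 and none for 21092, and only the first kind was named. Probe sets of a gene were averaged, which gave 13191 genes, 7438 with 1 probe set. One limma model (limma 3.58.1 in R 4.3.3) held the 5 group means of all 10 arrays, with p-values adjusted by Benjamini-Hochberg over all genes of a contrast and a threshold of 0.05. In simulated data on 13191 genes for IVDS3 against ES, 82% of 2-fold and 98% of 4-fold changes were recovered, with 3.74% false calls. On the measured arrays 49.7% of genes were called, and ES replicate 2 read high at the viral probe sets. Whether the simulated rates hold for the measured arrays was not tested.

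The 95 gene lists (1970 genes measured of 2869) and the genes looked at were chosen with earlier results of these data known. Genes were open to be named, and not all are, where they were among the 12 largest rises and falls, up to 6 called members of each list per direction, all members of lists of at most 12, 40 landmark genes, and the 8 largest differences per direction also found, or not called, against stage 2. An omission is a fit without 1 array of the groups compared. Alternatives tried were other scaling, arrays, gene values, thresholds and variance priors. Sequences were not used here, and planned counts of promoter letters were not made.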

Additional observations from a re-analysis of the deposited data

Results flagged for a closer look

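At 89 genes IVDS3 and IVDS2 were called on opposite sides of the same ES arrays and also differed from each other in the direct test, 43 of them higher and 46 lower at IVDS3. Of the genes named in the text, BMP4, a ligand that drives amnion and trophoblast fates, was 1.48 from ES at IVDS2 and -2.42 at IVDS3, and IVDS3 differed from IVDS2 by -3.90 ± 0.33 (limma, adjusted p = 3.9e-05). COL4A6, a basement membrane collagen chain, went the same way (1.35 at IVDS2, -0.83 at IVDS3, direct difference -2.18 ± 0.17). The squamous and pluripotency factor KLF4 went from -0.97 to 1.78 (direct difference 2.75 ± 0.27) and the integrin chain ITGA6 from -0.68 to 0.73 (direct difference 1.41 ± 0.15). NTN4, a laminin-binding netrin, went from -1.92 to 1.25 (direct difference 3.17 ± 0.19), the chaperone HSPA4L from -1.22 to 1.23 (2.44 ± 0.11), and the Polycomb subunit CBX6 from -0.54 to 1.02 (1.56 ± 0.12).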

How the results depend on the processing

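Between IVDS3 and ES the 6557 genes and 16708 probe sets called became 1184 and 3047 when tested against a log2 difference of 1, and the 5242 and 2883 genes called between IVDS3 and IVDS2 and between IVDS3 and its colony centre became 734 and 281. Other settings (array centring, 4 arrays, robust prior, most variable probe set) kept each count within 1.5 times its value. With 1 array left out the counts were 4841 to 6845 genes and 12019 to 18083 probe sets against ES, 3433 to 4164 genes against IVDS2 and 1473 to 2486 against the centre. With the replicate number as a block 6611 genes and 17183 probe sets were called against ES, 5359 genes against IVDS2 and 2995 against the centre. Deviations of same-numbered samples correlated at -0.0515 between ES and IVDS3, 0.196 between IVDS2 and IVDS3 and 0.0424 between IVDS2-C and IVDS3, from -0.212 to 0.277 over the 10 pairs of groups with 5 above 0.1, so the numbers were not taken to pair the samples. With the block, of the genes named, IFNL1 gained a call (adjusted p = 0.0183).

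Of the genes named, those with a call kept its direction in every setting. Some members without a call changed sign. With 1 array left out IFITM1 lay between -0.15 and 0.32, IFNLR1 between -0.15 and 0.14, KRT2 between -0.10 and 0.29, TRIM5 between -0.41 and 0.26, TRIM25 between -0.29 and 0.15, SERPINB6 between -0.26 and 0.16 and VIM between -0.11 and 0.85. The most variable probe set of IFITM1 gave -0.030, and with arrays centred SERPINB6 was 0.015 and IFNLR1 0.057. Centring ended the calls of PITX1 (adjusted p = 0.0853) and S100A1 (0.0542), and the 4 arrays alone those of PITX1 (0.139), PGF (0.0781) and SET (0.103). The cause was not tested. The hepatocyte count of falls was 10 with 4 arrays, and that of the anaphase promoting complex 2 with either setting. With 2 arrays a group, signal over background not given and 1 cell line, small differences and absent genes cannot be judged.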

Other observations

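Many histone chaperones fell in IVDS3, and Polycomb genes changed in both directions. Of 15 histone chaperones and related proteins 10 fell (28.6% of all genes), 6 of them at least 2-fold, and 2 rose, HMGN3 (0.77 ± 0.12) and SET (0.42 ± 0.14), the latter with a call lost in 3 omissions (adjusted p = 0.159 without IVDS3 replicate 1, 0.0819 without IVDS3 replicate 2 and 0.192 without ES replicate 2). ASF1B, which hands new histones to replicating DNA, read 0.14 and 0.080 in ES and -2.28 and -2.01 in IVDS3 (-2.26 ± 0.23), NASP, which stores them, differed by -2.14 ± 0.19, and the architectural protein HMGA1 by -2.31 ± 0.19. Of 16 Polycomb genes 8 fell, 2 rose and 6 were not called (median -0.28). The risen genes were CBX6 (1.02 ± 0.12) and PHC2 (0.51 ± 0.13), the latter not called without IVDS3 replicate 1 (adjusted p = 0.0534) and at 0.33 without ES replicate 2. Of the falls, that of PHF19, a partner of the repressive complex that binds methylated histone, was the largest (-1.94 ± 0.18), followed by PCGF6 (-1.49 ± 0.21) and JARID2 (-1.07 ± 0.17).

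Genes of the Hippo pathway, which links cell contact to growth, rose in 11 of 22 cases (21.1% of all genes) and fell in 4. The falls included the coactivator YAP1 (-0.67 ± 0.12) and its DNA-binding partner TEAD2 (-0.94 ± 0.10), besides TEAD4 and the receptor kinase AXL (-0.63 ± 0.13). The TEAD cofactor VGLL3 rose (3.09 ± 0.27), as did the target genes F3, the tissue factor of coagulation (2.57 ± 0.32), and ANKRD1 (1.78 ± 0.27), which was lower in IVDS3 than in the colony centre (-2.18 ± 0.27, limma adjusted p = 0.000568). No explanation was tested for any of these values.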
